A study of Mus musculus with 12 samples.

Results

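Scavenger receptors are surface and endosomal proteins with which macrophages take up modified lipoproteins, bacteria and dying cells, and Pparg encodes a nuclear receptor for fatty acids that acts in macrophage lipid handling. The mRNA of 8 such receptors (Msr1, Marco, Colec12, Cd36, Scarb1, Cd68, Olr1 and Stab1) and of Pparg was followed here in mouse bone marrow-derived macrophages that lacked or carried the histone methyltransferase DOT1L. These 9 genes were chosen by name among 24445 genes with deposited counts, and all 9 were found. Each gene is represented by its RefSeq transcript row with the highest total count. The 4 groups held 3 libraries each, which the labels call biological replicates: KO cells given LPS, WT cells given LPS, untreated KO cells and untreated WT cells. LPS, a cell wall component of Escherichia coli (O111:B4) that activates TLR4, was given at 10 ng/mL for 3 hours. The mice were C57BL/6, the KO concerns DOT1L in myeloid cells, and the labels put the name Lyz2 beside the strain. Marrow was grown with M-CSF from L929-conditioned medium. The sources used here do not give the ages of the mice, the deleted exons or the alleles that the WT mice carried.

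Msr1 (SR-A), Marco and Colec12 are class A receptors with a collagen-like stalk. Cd36 and Scarb1 (SR-BI) belong to class B: CD36 takes up oxidized lipoproteins and long-chain fatty acids, and SR-BI exchanges cholesterol with high-density lipoprotein. Cd68 encodes a heavily glycosylated late endosomal protein used as a macrophage marker, Olr1 the lectin-like receptor LOX-1 for oxidized low-density lipoprotein, and Stab1 the clearance receptor stabilin-1. PPARG binds DNA with RXR partners at repeats of AGGTCA, and Cd36 is among its known target genes in macrophages. LPS signalling is known to lower Pparg mRNA in macrophages, and uptake by these receptors is a step in the formation of foam cells in atherosclerosis.

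Library totals over 1 row per gene ran from 8.64 M to 13.5 M counts (M, 1e6). Levels are given as CPM, counts per 1e6 counts after TMM scaling of all 12 libraries to a common scale. Before that scaling, 3 counts correspond to 0.222 to 0.347 per 1e6 counts of the library total. TMM scaling moves this floor: 3 reads of Olr1 in untreated WT replicate 2 were 0.211 CPM. The macrophage markers Adgre1, Csf1r, Itgam, Fcgr1, Mertk, Cd14 and Lyz2 were all detected, with summed levels of 8001 to 9216 CPM in KO cells and 10836 to 12962 CPM in WT cells given LPS, and of 6042 to 6692 CPM in KO and 8759.6 to 10335 CPM in WT untreated cells. The lower KO sums lay in Lyz2: the other 6 markers summed to 5025 to 5777 CPM in KO and 4215 to 4984 CPM in WT cells given LPS, and to 3426 to 3660.5 CPM in KO and 2953 to 3121 CPM in WT untreated cells. Dot1l mRNA was at 65.3 to 73.3 CPM in KO and 60.6 to 69.2 CPM in WT cells with LPS, and at 85.7 to 97.8 CPM in KO and 82.4 to 111 CPM in WT cells without it. These counts cover the whole transcript, so they check nothing about the deletion. Lyz2, the lysozyme gene named with the strain, separated the genotypes, at 2975 to 3439 CPM in KO against 6409 to 7977 CPM in WT cells with LPS, and at 2615 to 3032 CPM in KO against 5729.5 to 7214 CPM in WT cells without it; its log2 fold change in KO cells was -1.17 ± 0.10 with LPS (adjusted p = 0.00143) and -1.16 ± 0.11 without (adjusted p = 0.0783). WT replicate 1 stood apart from the other libraries in both conditions: on the second principal component (4.3% of the variance) its 2 libraries lay at -35.1 and -35.4, and the other 10 between -1.7 and 11.4. Results that rest on this replicate are therefore given with and without it.

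The 9 genes spanned a wide range of abundance, compared per transcript length with the authors' RPKM (reads per kilobase of transcript and per 1e6 reads). With LPS, Cd68, Cd36 and Msr1 held the 3 top places in both genotypes, Olr1 had rank 6 and Pparg rank 9. Below the top 3 the order was less clear, since the ranges of Stab1 and Scarb1 overlapped in both genotypes, those of the neighbours Colec12, Marco and Pparg overlapped in KO cells, and those of Olr1, Marco and Colec12 overlapped in WT cells. Pparg was at 4.02 ± 0.434 RPKM in KO and 4.53 ± 0.118 RPKM in WT cells, and Olr1 at 10.9 ± 1.47 RPKM in KO and 7.28 ± 2.36 RPKM in WT cells (SD, n = 3 each). Without LPS the order was Cd68, Cd36, Msr1, Stab1, Scarb1, Pparg, Colec12, Marco and Olr1 in both genotypes, and the ranges of no 2 neighbours in that order overlapped. Cd68 led there with 1431 ± 119 RPKM in KO and 1724 ± 496 RPKM in WT cells, and Cd36 followed with 528 ± 21 RPKM in KO and 594 ± 130.2 RPKM in WT cells. Pparg stood in the middle, at 28.8 ± 2.91 RPKM in KO and 28.7 ± 0.844 RPKM in WT cells, and Olr1 came last, at 0.148 ± 0.0219 RPKM in KO and 0.0693 ± 0.0186 RPKM in WT cells.

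**Figure D1:**
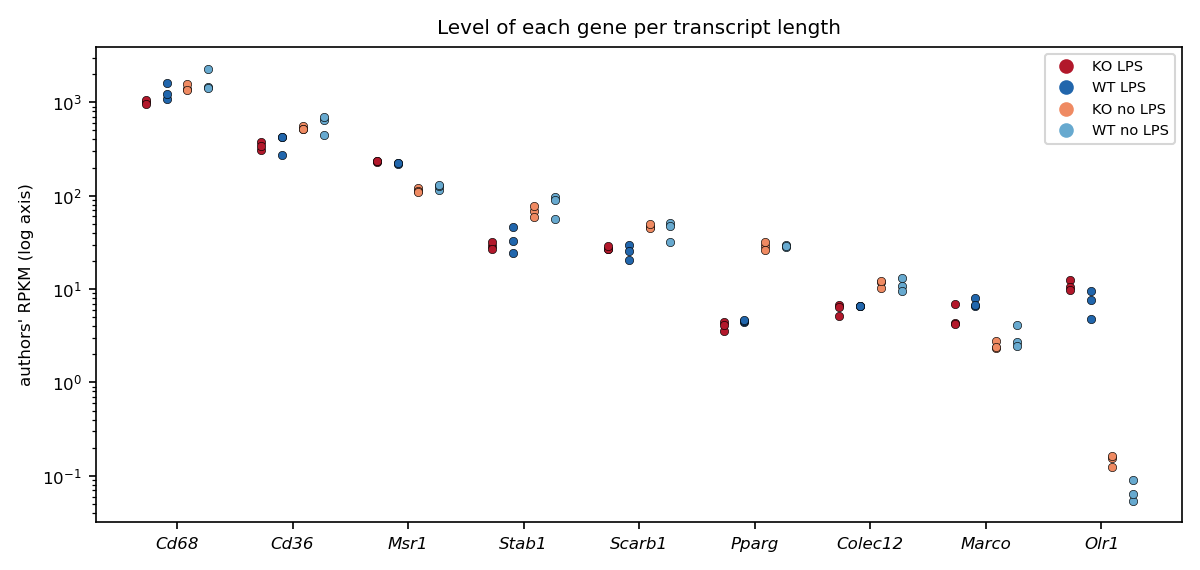
Each point is the authors' RPKM of 1 gene in 1 library, on a log axis, with the 9 genes ordered by their mean in untreated WT cells and the 4 groups side by side (3 libraries each). Cd68 and Cd36 lie at the top in every group, and Olr1 and Pparg are the genes whose rank differs most between LPS-treated and untreated cells.

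KO was compared with WT in untreated macrophages to ask how loss of DOT1L relates to the resting receptor repertoire. None of the 8 members that passed the filter on low counts was called at an adjusted p of 0.05, against 0% of the 11622 genes tested (0 genes). All adjusted p-values come from edgeR's quasi-likelihood test with Benjamini-Hochberg adjustment over all genes tested, and ± after a log2 fold change is an approximate SE. At an unadjusted p under 0.05 the test gave 841 genes (7.24%), and DESeq2 called 49 genes, none of them a member. The median log2 fold change was -0.19 over the 8 members and 0.00 over all genes.

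Among the class A receptors, Msr1 had 393, 379 and 352 CPM in untreated KO cells, against 423, 425 and 432 CPM in untreated WT cells. All 3 KO libraries lay below all 3 WT libraries, a separation seen for 15.3% of the genes tested, and the log2 fold change was -0.17 ± 0.08 (adjusted p = 0.716; approximate 95% interval -0.34 to 0.01). Marco had 4.91, 4.17 and 4.16 CPM in KO and 8.13, 4.85 and 4.50 CPM in WT cells. The groups overlapped, WT replicate 1 was the high library, and the log2 fold change of -0.35 ± 0.25 (adjusted p = 0.865) was -0.06 ± 0.18 without it (adjusted p = 0.902). Colec12, which binds oxidized lipoprotein and yeast, had 35.7, 30.9 and 36.1 CPM in KO and 43.7, 32.8 and 29.3 CPM in WT cells, again with WT replicate 1 highest. Its log2 fold change of -0.02 ± 0.16 (adjusted p = 0.994) was 0.16 without that library.

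Of the class B receptors, Cd36 had 1762, 1672 and 1645 CPM in KO cells and 1597, 2110.0 and 2264 CPM in WT cells without LPS. WT replicate 1 lay below all KO libraries and the other 2 WT libraries above them. The log2 fold change was -0.21 ± 0.13 with all 6 libraries (adjusted p = 0.837), and -0.35 ± 0.05 without WT replicate 1 (adjusted p = 0.00114). Scarb1 had 105, 104 and 111 CPM in KO and 81.0, 117 and 109 CPM in WT cells, with WT replicate 1 again the lowest. Its log2 fold change was 0.08 ± 0.13 (adjusted p = 0.956) and -0.06 without that library.

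Cd68 had 1541, 1785 and 1484 CPM in untreated KO cells and 2871, 1658 and 1628 CPM in untreated WT cells. The 1 high value was WT replicate 1, and the log2 fold change of -0.34 ± 0.21 (adjusted p = 0.846) was -0.02 ± 0.07 without it. Stab1 had 485, 565 and 423 CPM in KO and 449, 715 and 651 CPM in WT cells. Here WT replicate 1 was the low WT library: the log2 fold change was -0.28 ± 0.18 with it (adjusted p = 0.844) and -0.46 ± 0.11 without it (adjusted p = 0.0493). Pparg had 54.7, 61.9 and 48.9 CPM in KO and 63.2, 54.3 and 56.2 CPM in WT cells. The groups overlapped, the log2 fold change was -0.05 ± 0.11 (adjusted p = 0.966), and its approximate 95% interval ran from -0.30 to 0.20.

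Olr1 was close to the detection limit without LPS and did not pass the filter. It had 8, 7 and 6 reads in untreated KO libraries, against 2, 3 and 4 reads in untreated WT libraries. The ratio of the pooled CPM was 2.00, with an exact binomial 95% interval of 0.88 to 4.97 that covers counting error only. The groups did not overlap, as was the case for 15.3% of the genes tested, but the interval includes equality.

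Which receptors passed the threshold in untreated cells rested on WT replicate 1. Without it, 775 genes were called (6.56% of 11808 tested), and 2 of the 8 members were among them, Cd36 and Stab1, both lower in KO cells. The distance of this replicate from the mean of its group mates was -0.45 for Cd36 and -0.60 for Stab1 on the log2 scale, and 26.9% and 15.2% of 9745 genes lay at least as far from theirs. Msr1 stayed at -0.17 ± 0.06 (adjusted p = 0.114).

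**Figure D2:**
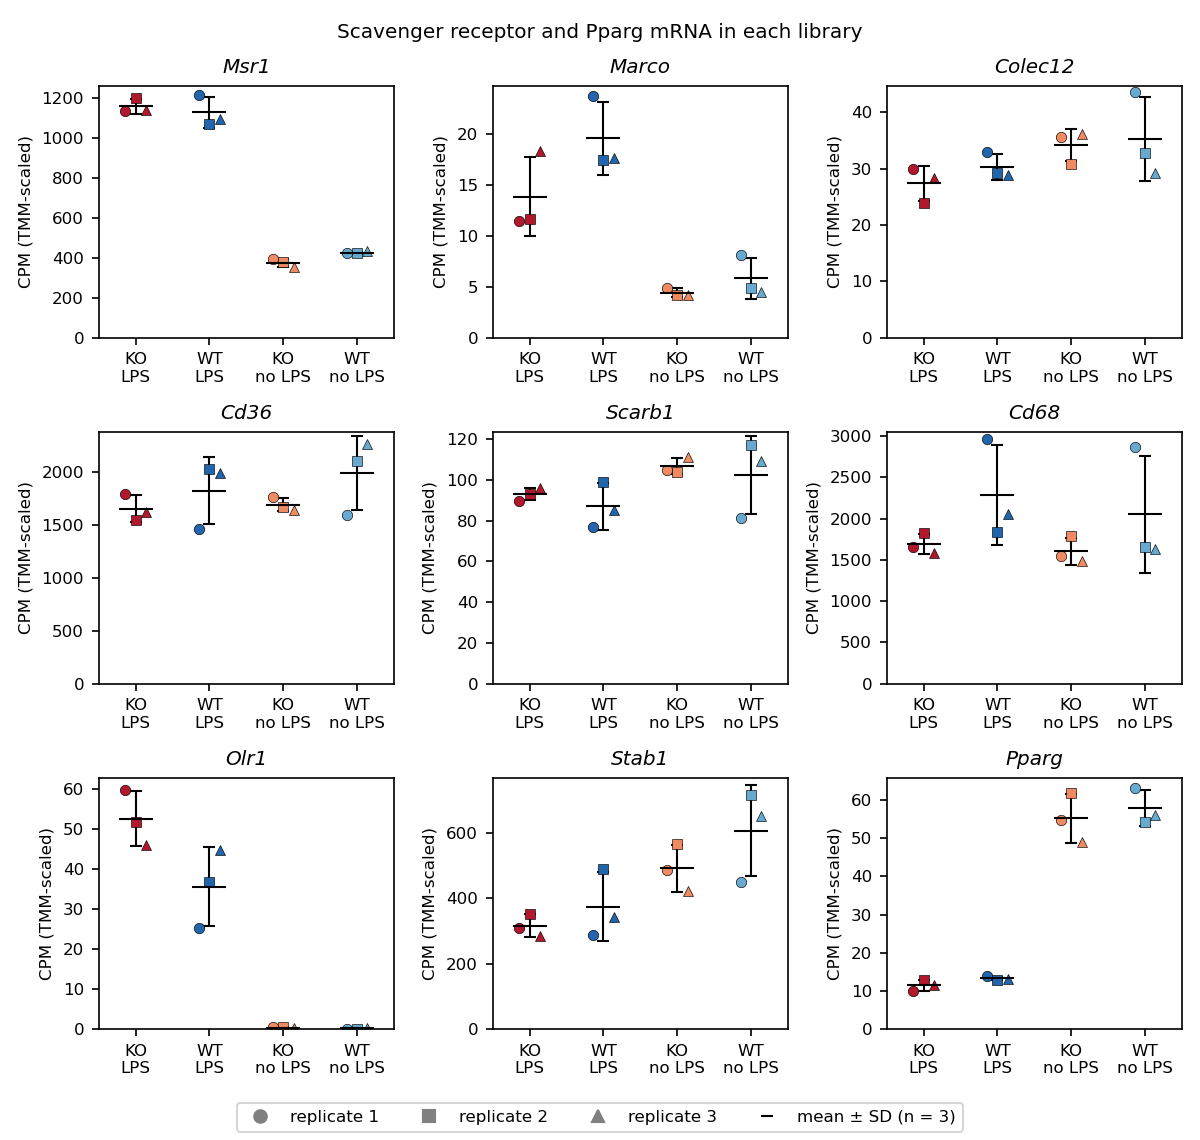
CPM (TMM-scaled, linear axes from 0) of each gene in each of the 12 libraries, with marker shapes for the replicate number and black bars for the mean ± SD of 3 libraries. Msr1, Marco and Olr1 are higher and Pparg is lower with LPS in both genotypes, and WT replicate 1 (circles) is the high WT library for Cd68 and the low one for Cd36 in both conditions.

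The same genotype comparison was made in cells given LPS. None of the 9 members was called, against 1.13% of the 11264 genes tested (113 genes higher and 14 lower in KO cells), and DESeq2 called none of the members either. The test gave 1553 genes (13.8%) at an unadjusted p under 0.05, among them Olr1, Cd68 and Marco. The median log2 fold change was -0.15 over the members and -0.01 over all genes.

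Olr1 had 59.9, 51.9 and 46.1 CPM in KO cells given LPS, against 25.3, 36.8 and 44.8 CPM in WT cells given LPS. The groups did not overlap, as was the case for 20.3% of the genes tested, although the lowest KO and the highest WT library were close. The log2 fold change was 0.54 ± 0.18 (adjusted p = 0.196; approximate 95% interval 0.15 to 0.93), and it was 0.36 ± 0.12 without WT replicate 1, the lowest library (adjusted p = 0.107). Over the alternatives run, the adjusted p of Olr1 was between 0.0943 and 0.503.

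Marco had 11.5, 11.7 and 18.3 CPM in KO and 23.7, 17.4 and 17.6 CPM in WT cells with LPS. KO replicate 3 lay within the WT range, and the log2 fold change was -0.50 ± 0.20 (adjusted p = 0.300), with a range from -0.76 without KO replicate 3 to -0.35 without WT replicate 1. Cd68 had 1662, 1824 and 1589 CPM in KO and 2971, 1834 and 2055 CPM in WT cells. All KO libraries were below all WT libraries, and 20.3% of the genes tested were apart in either direction. KO replicate 2 (1824 CPM) and WT replicate 2 (1834 CPM) were close. The log2 fold change of Cd68 was -0.45 ± 0.16 (adjusted p = 0.231), and -0.21 ± 0.07 without WT replicate 1 (adjusted p = 0.124).

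Cd36 had 1799, 1549 and 1622 CPM in KO and 1459.8, 2028 and 1992 CPM in WT cells with LPS, the same arrangement as in untreated cells, with WT replicate 1 below the KO libraries. Its log2 fold change was -0.15 ± 0.12 (adjusted p = 0.633), and -0.29 ± 0.07 without WT replicate 1 (adjusted p = 0.0294), where 4.75% of the genes were called and Cd36 alone of the 9 members. Pparg had 10.1, 13 and 11.7 CPM in KO and 13.9, 13 and 13.1 CPM in WT cells. All KO libraries lay below all WT libraries, a separation seen for 20.3% of the genes tested. KO replicate 2 and WT replicate 2 were very close, both at 13 CPM when rounded, and the log2 fold change was -0.21 ± 0.13 (adjusted p = 0.511).

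The other 4 receptors had overlapping groups with LPS. Their log2 fold changes were 0.03 ± 0.08 for Msr1, 0.09 ± 0.10 for Scarb1, -0.15 ± 0.12 for Colec12 and -0.25 ± 0.16 for Stab1, and their adjusted p-values lay between 0.518 and 0.909. Single libraries moved most of these values: Stab1 was at -0.41 without WT replicate 1 and at -0.02 without WT replicate 2, Colec12 at -0.22 without KO replicate 1 and at -0.06 without KO replicate 2, and Scarb1 at 0.00 without WT replicate 1 and at 0.18 without WT replicate 2. For Msr1 the approximate 95% interval was -0.15 to 0.21, the narrowest of the 9.

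**Figure D3:**
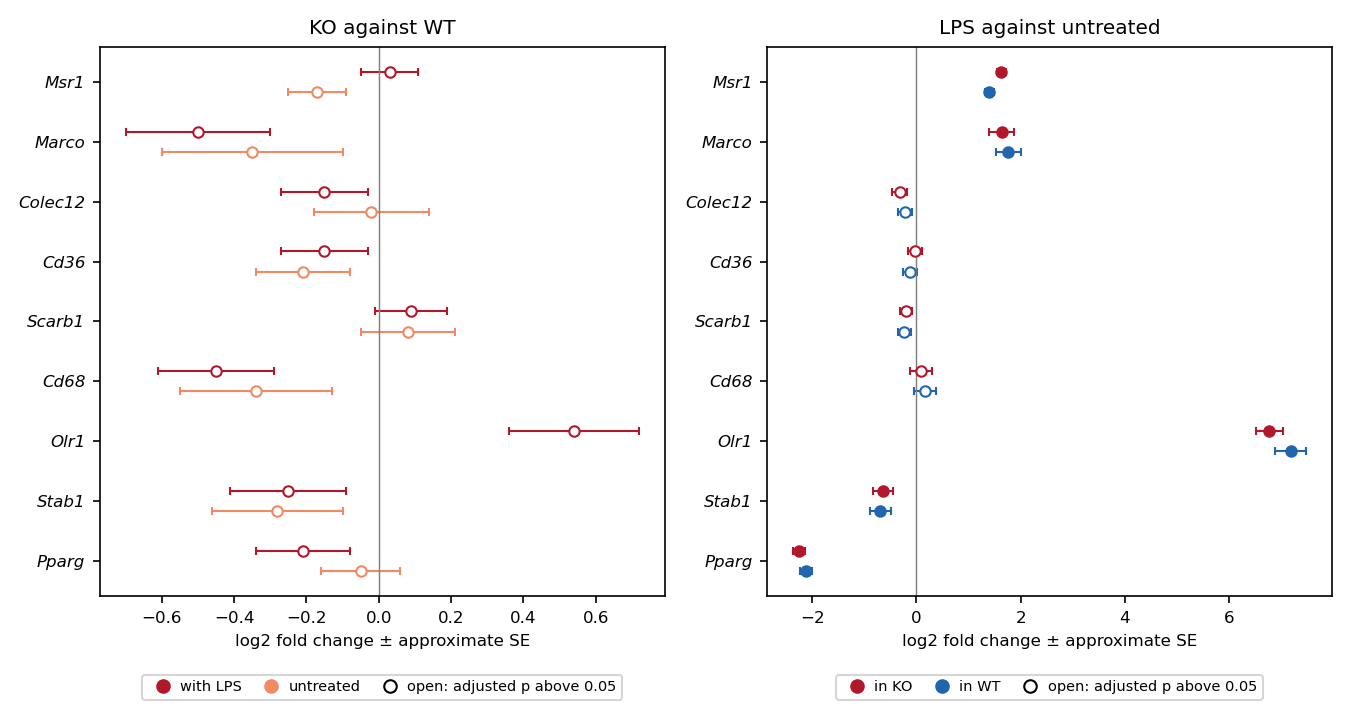
Log2 fold change of each gene with its approximate SE, KO against WT on the left and LPS against untreated on the right; filled points have an adjusted p below 0.05 and open points do not. No point is filled on the left, and Msr1, Marco, Olr1, Stab1 and Pparg are filled in both genotypes on the right.

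LPS was then compared with no treatment in each genotype, which asks how the receptors respond to an inflammatory stimulus. In KO cells 5 of 9 members were called, 3 higher and 2 lower, against 61.2% of the 11984 genes tested (30.3% higher and 30.9% lower). In WT cells the same 5 were called in the same directions, against 57.4% (27.6% higher and 29.8% lower). The members' shares are close to these backgrounds. The genes that rose were the class A receptors Msr1 and Marco and the oxidized lipoprotein receptor Olr1, and the genes that fell were Pparg and Stab1.

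Olr1 gave the largest difference of the 9 in both genotypes. It had 677, 562 and 491 reads in KO cells with LPS against 8, 7 and 6 reads in untreated KO cells, and 169, 364 and 394 reads in WT cells with LPS against 2, 3 and 4 reads in untreated WT cells. The ratio of pooled CPM was 112 in KO cells (exact binomial 95% interval 72.8 to 181) and 155 in WT cells (81.2 to 339.7), and the test called both (adjusted p = 3.97e-11 in KO and 1.09e-10 in WT). Olr1 lies on chromosome 6 (GRCm38.p6, 129479150 to 129507350, minus strand). In view of this response, the 250 bases before its RefSeq start, which lies within that span, are printed together with those of Marco, the other receptor that rose from a low level; in capitals are the matches to TGANTCA (the AP-1 site) and AGGTCA (the single element bound by PPARG and other nuclear receptors).
Olr1, chr6:129507166-129507415, minus strand: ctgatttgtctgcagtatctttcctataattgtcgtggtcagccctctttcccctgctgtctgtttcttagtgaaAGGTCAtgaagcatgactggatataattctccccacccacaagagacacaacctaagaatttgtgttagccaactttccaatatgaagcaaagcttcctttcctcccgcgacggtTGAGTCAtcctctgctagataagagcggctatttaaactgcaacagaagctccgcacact
Marco, chr1:120505025-120505274, minus strand: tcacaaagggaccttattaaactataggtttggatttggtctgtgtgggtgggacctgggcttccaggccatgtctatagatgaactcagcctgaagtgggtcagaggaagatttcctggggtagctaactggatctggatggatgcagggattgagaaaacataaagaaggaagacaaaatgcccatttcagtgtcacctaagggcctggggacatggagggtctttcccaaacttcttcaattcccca

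In the Olr1 sequence TGANTCA begins at -60 and AGGTCA at -175, counted back from the start. TGANTCA occurs on either strand in 6.75% and AGGTCA in 14% of 32851 mouse promoters of the same length. The Marco sequence held neither, nor the kappaB motif (GGGA, any base, TTTCC), GAGGAAGT (PU.1), TGACGTCA (CRE), TATAAA or TTGCNNAA (C/EBP). Of the other members in the promoter table, Cd36 had AGGTCA at -228, Cd68 had TGANTCA at -149 and -24 and TTGCNNAA at -43, and Pparg, which has 3 listed starts, had AGGTCA at -28 of the first and at -9 of the second, TATAAA on the other strand at -29 of the second, and TTGCNNAA at -215 and -16 of the third. TTGCNNAA occurs in 9.56%, TATAAA in 12.4%, GAGGAAGT in 2.44% and TGACGTCA in 1.55% of promoters. The kappaB motif, present in 0.356%, was found upstream of none of the members searched. Msr1, Scarb1 and Colec12 had no promoter sequence in the source used and were not searched. The matches are letters in a window and were not measured as binding sites.

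Msr1 (chromosome 8, 39543232 to 39642750) was the most abundant receptor that rose. It had 1134, 1202 and 1141 CPM in KO cells with LPS against 393, 379 and 352 CPM in untreated KO cells, and 1217, 1071 and 1096 CPM in WT cells with LPS against 423, 425 and 432 CPM in untreated WT cells. Every LPS library was above every untreated library, a separation in either direction that 74.1% of genes showed in KO and 57.8% in WT cells, and the log2 fold change was 1.63 ± 0.08 in KO (adjusted p = 4.60e-10) and 1.40 ± 0.08 in WT cells (adjusted p = 2.39e-09). Marco (chromosome 1, 120474538 to 120505024) rose from a low level, with 11.5 to 18.3 CPM in KO cells with LPS against 4.16 to 4.91 CPM without, and 17.4 to 23.7 CPM in WT cells with LPS against 4.50 to 8.13 CPM without. Its log2 fold change was 1.64 ± 0.24 in KO (adjusted p = 4.29e-05) and 1.76 ± 0.24 in WT cells (adjusted p = 2.28e-05).

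Pparg (chromosome 6, 115360879 to 115490404) fell in both genotypes. It had 10.1, 13 and 11.7 CPM in KO cells with LPS against 54.7, 61.9 and 48.9 CPM in untreated KO cells, and 13.9, 13 and 13.1 CPM in WT cells with LPS against 63.2, 54.3 and 56.2 CPM in untreated WT cells. The log2 fold change was -2.25 ± 0.12 in KO (4.76-fold lower; adjusted p = 1.21e-09) and -2.12 ± 0.12 in WT cells (4.34-fold lower; adjusted p = 2.92e-09). All 4 deposited Pparg rows had nearly the same counts, so its isoforms are not resolved. An annotated antisense gene overlaps Pparg, and whether the counting used the strand is not given in the sources used here.

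Stab1 (chromosome 14, 31139017 to 31168651) fell less. It had 310.1, 353 and 285 CPM in KO cells with LPS against 485, 565 and 423 CPM without, and 289, 490.1 and 344 CPM in WT cells with LPS against 449, 715 and 651 CPM without. The groups were apart in KO cells, as were those of 74.1% of the genes tested. They overlapped in WT cells, where replicates 1, 2 and 3 were each lower with LPS. The log2 fold change was -0.64 ± 0.20 in KO (adjusted p = 0.0126) and -0.69 ± 0.20 in WT cells (adjusted p = 0.00826), and the call in KO cells was lost without LPS-treated KO replicate 3 (-0.56, adjusted p = 0.0531). The 3′ end of Stab1 overlaps Nt5dc2 on the other strand. Stab1 is also made by endothelial cells: the endothelial markers summed to 132 to 153 CPM in KO and 99.7 to 133 CPM in WT cells with LPS, and to 41.8 to 45.0 CPM in KO and 32.4 to 39.6 CPM in WT cells without, with Emcn at 0 in all groups and Kdr as the main source. Pecam1 and Cdh5, also on this list, were at mean levels of 3.58 CPM or less in every group. Cdh5 was called higher with LPS in WT cells (1.05, adjusted p = 0.0240) and was not called in KO cells (0.66, adjusted p = 0.0714). Within this list Kdr rose by 2.35 in KO and 2.39 in WT cells and Pecam1 by 1.36 and 1.87 on the log2 scale with LPS, while Stab2 was called lower, at -0.73 in KO (adjusted p = 0.0159) and -0.72 in WT cells (adjusted p = 0.0231), the direction of Stab1. The part of endothelial RNA in the Stab1 result was not tested. In bulk RNA, fewer cells of a type and less RNA per cell cannot be told apart.

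Cd36, the class B receptor and PPARG target, was not called in either genotype. Its log2 fold change with LPS was -0.03 ± 0.14 in KO (adjusted p = 0.866; approximate 95% interval -0.33 to 0.27) and -0.12 ± 0.14 in WT cells (adjusted p = 0.467; -0.42 to 0.18). Scarb1 had -0.20 ± 0.12 in KO (adjusted p = 0.181) and -0.23 ± 0.12 in WT cells (adjusted p = 0.126). Colec12 (chromosome 18) had -0.32 ± 0.14 in KO (adjusted p = 0.0631) and -0.22 ± 0.14 in WT cells (adjusted p = 0.220). In KO cells the LPS and untreated libraries were apart for both Scarb1 and Colec12, as for 74.1% of the genes tested. In WT cells they overlapped for both. Colec12 is also a stromal gene: the stromal markers summed to 4.62 to 7.99 CPM in KO and 1.82 to 4.8 CPM in WT cells with LPS. Without LPS they summed to 1.01 CPM at most, and Lum, which marks fibroblasts, had no count. Pdgfrb, the 1 stromal marker that was tested, was called higher with LPS (4.48 in KO, adjusted p = 1.02e-06, and 5.38 in WT cells, adjusted p = 1.34e-05). The part of stromal RNA in the Colec12 result was not tested. Cd68 had 0.08 ± 0.21 in KO (adjusted p = 0.774) and 0.16 ± 0.21 in WT cells (adjusted p = 0.547). The calls of Colec12 and Scarb1 in KO cells depended on which libraries entered the fit. In a fit on the 6 KO libraries alone both were called lower with LPS (Colec12 -0.34, adjusted p = 0.00612; Scarb1 -0.21, adjusted p = 0.00475), and likewise when WT replicate 1 was left out in both conditions (adjusted p = 0.00418 and 0.00498), where 71.3% of genes were called. Single libraries also moved these genes over the threshold: Colec12 was called in KO cells without untreated KO replicate 2 (-0.41, adjusted p = 0.0467), and in WT cells Scarb1 was called without LPS-treated replicate 2 (-0.34, adjusted p = 0.0460) or untreated replicate 1 (-0.35, adjusted p = 0.00374). Cd68 was called higher in WT cells without untreated replicate 1 (0.49, adjusted p = 0.0153) and stood at -0.08 without LPS-treated replicate 1. Without WT replicate 1 in both conditions, where 61.2% of genes were called in WT cells, Cd68 was called higher at 0.27 ± 0.08 (adjusted p = 0.0110) and Scarb1 lower at -0.27 ± 0.08 (adjusted p = 0.00491).

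The LPS results above and the main test of the interaction below were fitted without pairing. In an alternative, the replicate numbers in WT cells were taken to pair the LPS-treated with the untreated libraries. The deviations of same-numbered libraries from their group means correlated at 0.24 to 0.55. The highest value was that of replicate 1, and 5 of 6 libraries correlated best with their own number, so the pairing is an assumption. With the replicate as a block, 68.1% of genes and all 9 members were called in WT cells. The 4 added members had small differences: Cd36 -0.12 (adjusted p = 0.0409), Scarb1 -0.23 (0.00281), Colec12 -0.20 (0.0496) and Cd68 0.18 (0.00779).

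The scale of the comparison bears on these small differences. TMM puts the median gene of the LPS response at -0.02 in KO and -0.05 in WT cells, whereas on the authors' RPKM, which divide by the library total, the median gene lay at -0.59 and -0.57. On TMM 49.5% of the calls in KO and 48.1% in WT cells were higher with LPS, against 18.7% and 18.5% on RPKM. On RPKM, with 78.3% of genes called in KO and 77.5% in WT cells, 9 members were called in KO and 8 in WT cells, and Cd68 changed sign, to -0.51 in KO (adjusted p = 0.0225) and -0.37 in WT cells (adjusted p = 0.0786). Relative to the median gene, the members with small differences had nearly the same values on both scales: on RPKM Cd36 was at -0.03 in KO and -0.10 in WT cells, Scarb1 at -0.19 and -0.20, Colec12 at -0.31 and -0.17, and Cd68 at 0.08 and 0.20. Olr1 lay less far above it on log2(RPKM + 0.1), at 6.06 in KO and 5.97 in WT cells against 6.79 and 7.23 on TMM, since a pseudocount lowers the difference of a gene close to 0. Msr1, Marco and Olr1 were higher and Stab1 and Pparg lower with LPS on both scales.

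**Figure D4:**
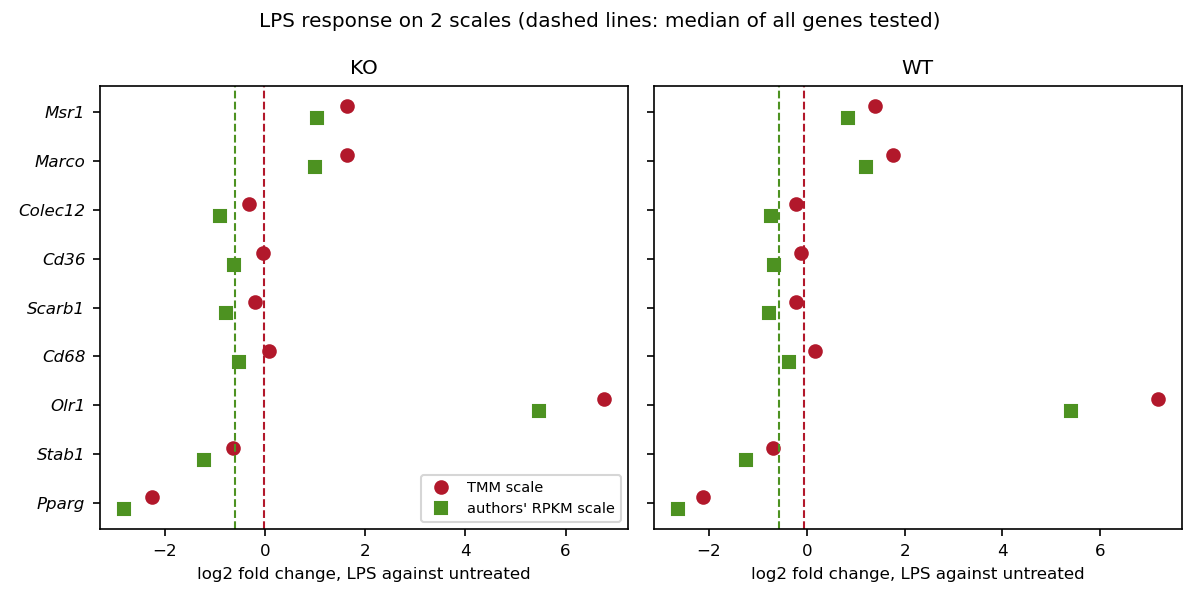
Log2 fold change with LPS on the TMM scale (circles) and on the authors' RPKM (squares) in KO (left) and WT cells (right), with dashed lines at the median of all genes tested on each scale. Cd36 and Cd68 lie near the median gene on both scales, and Msr1, Marco, Olr1 and Pparg lie far from it on the same side.

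Whether the LPS response itself differed between KO and WT cells was tested as an interaction. No member was called, against 0% of 11984 genes (288 genes, 2.40%, at an unadjusted p under 0.05, and 0 by DESeq2). Msr1 had the smallest unadjusted p of the 9: its LPS response was 0.23 ± 0.11 larger in KO cells on the log2 scale (adjusted p = 1), and the range over leaving out 1 library at a time was 0.15 to 0.28. The responses of Pparg differed by -0.13 ± 0.17, with an approximate 95% interval of -0.50 to 0.23, and those of Cd36 by 0.09 ± 0.20 (-0.33 to 0.52). For Olr1 the difference was -0.42 ± 0.56, with an interval of -1.62 to 0.79 set by its few untreated reads.

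Cd68 is deposited as 2 rows that share reads, and they gave different pictures of WT replicate 1. The lengths implied by counts and RPKM were 1242 and 810 bases, a difference of 432 bases, and the second of the 6 exons of the GENCODE transcript is 434 bases long. Which bases the shorter row leaves out is not given in the sources used here. On the shorter row, WT replicate 1 had 1218 CPM with LPS, against 1089 and 1149.7 CPM in replicates 2 and 3, and 1007 CPM without LPS, against 961 and 962 CPM. The reads counted in the longer row only came to 1753 CPM with LPS and 1864 CPM without in that replicate, against 623 to 906 CPM with LPS and 594 to 793 CPM without in all other libraries. The excess of Cd68 in WT replicate 1 therefore lay mostly in reads outside the shorter row. With LPS the KO and WT groups overlapped on the shorter row, with 1102 CPM in KO replicate 2 against 1089 CPM in WT replicate 2. On the shorter row, the log2 fold change of KO against WT was -0.19 ± 0.09 with LPS (adjusted p = 0.374) and -0.07 ± 0.08 without (adjusted p = 0.941), and that of LPS was 0.15 ± 0.08 in KO (adjusted p = 0.132) and 0.24 ± 0.08 in WT cells (adjusted p = 0.0250).

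**Figure D5:**
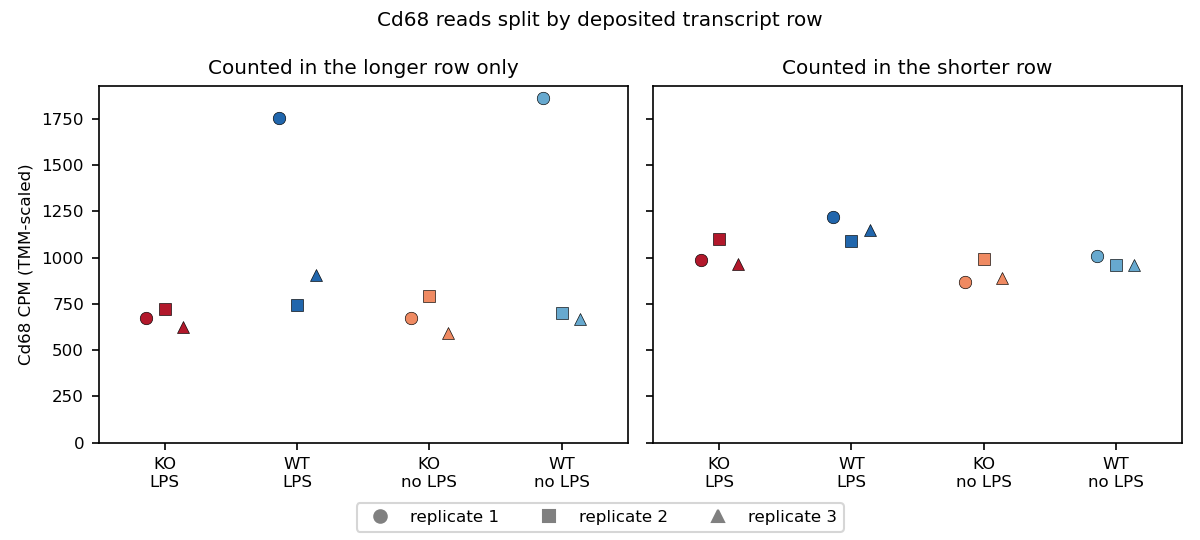
Cd68 CPM (TMM-scaled, linear axis from 0) counted in the longer row only (left) and in the shorter row (right), 1 point per library, with marker shapes for the replicate number. WT replicate 1 lies at 1753 and 1864 CPM on the left, above all other libraries, and close to its group mates on the right.

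Msr1 also has 2 rows, of 3642 and 1459 implied bases. The shorter row held 46.6% to 47.2% of the longer row's counts in KO and 48.3% to 48.7% in WT cells with LPS, and 51.3% to 53.7% in KO and 50.5% to 52.0% in WT cells without. The share was thus lower in every LPS library than in every untreated library.

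The genes around these receptors were described by lists of other scavenger receptors, PPARG partners, PPAR targets and upstream transcription factors, chosen with earlier results of these data known. In either genotype comparison no tested gene of these lists was called, against 1.13% of all genes with LPS and 0% without. The counts for the LPS response below stand against 30.3% of all genes called higher and 30.9% called lower in KO cells, and 27.6% and 29.8% in WT cells, with a median gene at -0.02 and -0.05. With LPS, 4 of 11 tested other scavenger receptors rose and 3 fell in KO cells, and 4 rose and 4 fell in WT cells (median log2 fold change 0.08 in KO and 0.09 in WT). Cxcl16, a membrane-bound chemokine that also binds oxidized lipoprotein, rose to 273 ± 52.5 CPM in KO cells with LPS against 43.1 ± 12.8 CPM without (log2 fold change 2.66, adjusted p = 3.73e-06), and to 251 ± 75.8 CPM in WT cells against 35.1 ± 16.1 CPM (2.85, adjusted p = 2.62e-06). Cd163, the haemoglobin-haptoglobin receptor, fell by 1.81 in KO and by 1.45 in WT cells on the log2 scale.

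Among 14 tested partners and coregulators of PPARG, 3 rose and 6 fell in each genotype (median -0.15 in KO and -0.04 in WT). Rxra, the main RXR partner in macrophages, fell to 9.23 ± 1.64 CPM in KO cells with LPS against 40.8 ± 5.22 CPM without, and to 13.3 ± 0.640 CPM in WT cells against 45.0 ± 3.97 CPM (log2 fold change -2.14 in KO and -1.76 in WT; adjusted p = 9.09e-09 and 7.38e-08). Ppard (-1.47 in KO, -1.55 in WT), which encodes a related receptor, fell as well, and the coactivator gene Ppargc1b rose (2.73 in KO, 2.78 in WT).

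The PPAR target genes moved in both directions: 5 of 19 tested rose and 4 fell in KO cells, and 5 rose and 3 fell in WT cells (median 0.08 in KO and 0.09 in WT). Acsl1, a fatty acyl-CoA synthetase, rose by 2.11 in KO and 1.94 in WT cells, glycerol kinase (Gk) by 1.48 and 1.17, and Nr1h3, which encodes LXR alpha, by 1.05 and 1.06. Angptl4, an inhibitor of lipoprotein lipase, was called lower from a low level, with a mean of 0.213 CPM in KO cells with LPS against 2.12 CPM without, and no read in WT cells with LPS against 1.18 CPM without. Several PPAR targets and Pparg are also adipocyte genes, and the adipocyte markers summed to 0.194 CPM at most, and Lep and Cidec had no read in any group.

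Of 12 transcription factors and receptors upstream of the members, 4 rose and 6 fell in each genotype (median -0.63 in KO and -0.55 in WT). Cebpa fell by 5.43 in KO and 4.91 in WT cells on the log2 scale, and Tfeb, a regulator of lysosomal genes, fell by 3.38 in KO cells and fell by 2.99 in WT cells. Mitf rose by 1.57 in KO and 1.67 in WT cells.

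The genes whose log2 CPM followed Pparg most closely over the 12 libraries were Slc35c1 (Pearson r = 0.997), Per1 (0.996) and Cebpg (0.996), out of 9542 genes, of which 1590 had an r over 0.9. For Msr1 they were Plek (0.999), Mmd (0.998) and Sod2 (0.998), with 2043 genes over 0.9, and for Cd36 St3gal2 (0.942), Snx25 (0.939) and Smyd2 (0.937), with 8 genes over 0.9. Pparg and Msr1 were both called with LPS, so their likeness to other genes includes the difference between LPS-treated and untreated libraries. After each condition's mean was subtracted, no gene had an r over 0.9 with Pparg, 2 had with Msr1 and 59 with Cd36. The closest genes were Zfp229 (0.894), Tdrd3 (0.886) and Phf20 (0.884) for Pparg, Plek (0.929), Cbfb (0.906) and Sod2 (0.879) for Msr1, and Esd (0.973), Mybbp1a (0.959) and Prdx1 (0.959) for Cd36. These values describe the 12 libraries and carry no test. Subtracting condition means does not remove the deviation of a single replicate. For Cd36, WT replicate 1 lay at -0.46 with and -0.45 without LPS from the mean of its group mates on the log2 scale. The part of that replicate in the likeness of Cd36 to other genes was not tested.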

How the data were processed

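The authors deposited whole-number read counts, not normalized, and RPKM for 35745 RefSeq transcripts, untreated and LPS-treated libraries in separate tables. STAR 2.5.2b, SAMtools 1.3.1 and mm10 are named per the submitters' processing notes; the sources used here do not give the counting tool or its strand setting. Reads shared by isoforms appear in each row, so 1 row per gene was used. RefSeq (GRCm38.p6) named 35440 transcripts and GENCODE 188; the 117 unnamed rows (0.259% to 0.738% of counts) were left out. Promoter sequences are RefSeq's, of GRCm38.p6.

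Deposited counts were filtered with filterByExpr, scaled by TMM and tested with edgeR 4.0.16 (quasi-likelihood F test, robust; limma 3.58.1, R 4.3.3), with a Benjamini-Hochberg threshold of 0.05. Genotypes were compared within each condition (6 libraries); LPS responses and the interaction used all 12 libraries as 4 groups. The scripts were tested on simulated data. SEs and intervals are derived from the F statistic. Alternatives included DESeq2 1.42.0, limma on log2(RPKM + 0.1) of the deposited RPKM, no filter, other scaling, another row per gene, the replicate block and leaving out libraries.

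All 9 members are named, at most 4 called genes per list by smallest p, and the 3 genes most like Pparg, Cd36 and Msr1. Some list genes that this rule selects are not reported here. The members and lists were chosen with earlier results of these data known. Same-numbered deviations correlated at 0.24 to 0.55 between LPS-treated and untreated WT libraries, so the numbers were taken to pair these. The pairing entered the replicate block only, and the main fit did not use it. The binomial intervals of Olr1 and the count floors cover counting error only. With 3 libraries against 3, the smallest p of a two-sided exact permutation test is 0.1, so none was used.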

Additional observations from a re-analysis of the deposited data

How the results depend on the processing

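In KO against WT without LPS, 0 genes were called, against 49 by DESeq2, 27 with all 12 libraries in the fit and 9 without the filter; without WT replicate 1, 775 genes and 2 members were called. Leaving out 1 library at a time gave 0 to 775 genes and 0 to 2 members. In KO against WT with LPS, 127 genes were called, against 265 by DESeq2, 274 without the filter, 47 with the replicate block and 543, with 1 member, without WT replicate 1; leaving out 1 library gave 17 (KO replicate 3) to 543 genes and 0 to 1 members, with 20 genes without WT replicate 3, 55 without KO replicate 1 and 60 without KO replicate 2. The LPS response had 5 members called per genotype, against 9 in KO and 8 in WT cells on RPKM and 9 in WT cells with the replicate block. In KO cells the replicate numbers were not taken to pair the libraries. Same-numbered deviations correlated at only 0.09 to 0.21 there, although 6 of 6 libraries correlated best with their own number, against 5 of 6 in WT cells. The block was nonetheless fitted to both genotypes together. It gave 7 members in KO cells, adding Colec12 (adjusted p = 0.00145) and Scarb1 (0.00646). The same 7 were called in the fit on the 6 KO libraries alone and without WT replicate 1 in both conditions. Between the genotypes same-numbered deviations correlated at -0.11 to 0.03 with and -0.19 to 0.18 without LPS. The interaction called 0 genes, and 24 without WT replicate 1 in both conditions, an alternative chosen after seeing the data.

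Among single members, values changed sign where they were near 0. Without LPS, Colec12 (-0.02 for KO against WT) was 0.05 on RPKM and 0.16 without WT replicate 1, Scarb1 (0.08) was -0.06 and Pparg (-0.05) was 0.01 without it; leaving out 1 library gave -0.14 to 0.16 for Colec12, -0.06 to 0.18 for Scarb1 and -0.13 to 0.02 for Pparg. With LPS, Msr1 ran from -0.01 to 0.09. The LPS response of Cd68 was -0.51 in KO and -0.37 in WT cells on RPKM, where the median gene lay at -0.59 and -0.57. It ran from -0.08 to 0.49 in WT cells over the libraries left out, and that of Cd36 from -0.09 to 0.02 in KO and -0.24 to 0.02 in WT cells. In the interaction, Scarb1 was -0.01 and Olr1 0.07 on RPKM, and over the libraries left out Marco ran from -0.44 to 0.03, Cd36 from -0.05 to 0.20, Scarb1 from -0.10 to 0.14, Cd68 from -0.43 to 0.15 and Stab1 from -0.11 to 0.30. The cause of these changes was not tested. Msr1, Marco, Olr1 and Pparg kept direction and call in the LPS response of both genotypes under every alternative run, and Stab1 did in WT cells. Depth limits Olr1 without LPS, at 21 reads in KO and 9 in WT cells.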

Other observations

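Of 10 tested partners of CD36 in signalling and adhesion, 5 rose and 2 fell with LPS in KO cells, and 6 rose and 2 fell in WT cells. Of all genes, 30.3% were called higher and 30.9% lower in KO cells, and 27.6% and 29.8% in WT cells. Tlr2, which with TLR6 and CD36 recognizes diacylated lipopeptides, rose to 761 ± 22.6 CPM in KO cells with LPS against 46.1 ± 2.07 CPM without, and to 645 ± 52.9 CPM in WT cells against 40.4 ± 5.14 CPM (SD, n = 3 each). Its log2 fold change was 4.04 ± 0.11 in KO (adjusted p = 1.42e-12) and 3.99 ± 0.11 in WT cells (adjusted p = 1.84e-12). Tlr6 rose by 1.31 in KO and 1.24 in WT cells and the kinase gene Lyn by 1.44 and 1.36, while the integrin gene Itga6 fell by 0.60 and 0.65 on the log2 scale.

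Of 8 tested genes for the fate of ingested cholesterol, 1 rose, 4 fell and 3 were not called with LPS in each genotype, against the same shares of all genes (median -0.35 in KO and -0.33 in WT, against -0.02 and -0.05 over all genes). Nceh1, a cholesteryl ester hydrolase, fell to 379 ± 16.6 CPM in KO cells with LPS against 671 ± 11 CPM without, and to 376 ± 24.9 CPM in WT cells against 622 ± 10.4 CPM. Soat1, which esterifies cholesterol for storage, fell by 0.72 in KO and 0.71 in WT cells on the log2 scale. The lysosomal cholesterol carriers went opposite ways: Npc2 rose by 0.71 in KO and 0.70 in WT cells, and Npc1 fell by 0.49 and 0.38. No gene of either list was called between KO and WT cells in either condition. The lists were chosen with earlier results of these data known.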
